A study of Mus musculus with 4 samples.

Results

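The genes described here are 45 components of the DNA replication machinery, out of 34844 gene names on a mouse expression array. They were chosen by name, as subunits and loaders of the replicative helicase, the polymerases, the sliding clamp and their partners. A gene was represented by its brightest probe, the probe with the highest mean signal over the arrays, and the other probes of a gene served as a check. The arrays carried 60 probes for the 45 genes: 32 genes had 1 probe, 11 had 2 and 2 had 3.

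The study compared wild-type (WT) mice with mice carrying a conditional knockout (cKO) of p38 alpha, a stress-activated kinase encoded by Mapk14, in 2 populations of blood-forming marrow cells. Long-term haematopoietic stem cells (LT-HSC) were the CD34- Flt3- fraction of LSK marrow cells, that is, cells without lineage markers that carry Sca-1 and Kit, and multipotent progenitors (MPP) were the CD34+ Flt3+ fraction. Donors in all 4 groups were male C57BL/6J mice aged 10 weeks. Cells of every group were stained with the dye CFSE, injected into Ly5.1 congenic hosts that had received 9.5 Gy of radiation, and sorted again from the marrow by their CFSE signal after 16 h, so that each array measured transplanted cells and none measured unmanipulated ones. Each of the 4 combinations of genotype and population had 1 array, with no replicate. The labels used here do not give the Cre driver, the deleted exons or the number of mice behind a sample.

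A eukaryotic cell copies its genome once per division in ordered steps. The origin recognition complex marks start sites, Cdc6 and Cdt1 load the MCM helicase there, and a kinase made of Cdc7 and Dbf4 converts the loaded rings, with Cdc45 and the GINS complex, into active helicases. Polymerase alpha with primase starts each strand, the clamp loader places the PCNA clamp, polymerases epsilon and delta extend, and flap endonuclease and ligase join the lagging-strand fragments. In marrow, LT-HSC are known for being mostly quiescent and MPP for cycling often, and many replication genes are known targets of the E2F transcription factors that act at the G1/S transition.

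All 45 genes were well above background on all 4 arrays, against 67.4 to 75.1% of all gene names. Signals below are processed intensities in arbitrary units. They have meaning within a probe only, since probes differ in brightness at equal RNA. Differences are on the log2 scale, after each array was divided by its 75th percentile (213.7 on the LT-HSC and 178.5 on the MPP array of WT, 202.0 and 174.9 on those of cKO). The error of a difference that the scanner program reports (scanner error) was 0.20 to 0.28 over these genes. It covers spot and background noise, not the spread between mice. A gene was counted as higher or lower when its difference reached 1.5-fold, which is 0.585 on the log2 scale, and a pair of arrays allows no test. The 4 arrays lay on 1 slide.

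The sort markers bore on the labels in part. Cd34 gave an LT-HSC minus MPP difference of -2.99 in WT and -1.02 in cKO. Flt3 gave -1.80 and -1.16 at its brightest probe, and 0.22 to 0.88 at its 2 other probes. A list of 10 stem cell markers went both ways. In WT 4 were lower and 2 higher in LT-HSC by 1.5-fold, with a median of -0.11 over the 9 measured on both arrays. Ly6a gave 1.96 and Procr -1.18. In cKO 1 was lower, Mecom at -1.75, and 1 higher, Ly6a at 2.11, with a median of 0.11. Mapk14 gave a cKO minus WT difference of -0.58 in LT-HSC and 0.13 in MPP at its brightest probe, and 0.13 and -0.03 at the other. Since the deleted exons are not given, these probes check nothing about the knockout.

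On the WT arrays, the replication genes were lower in LT-HSC than in MPP as a group. The median LT-HSC minus MPP difference was -0.94 over the 45 genes, with a range from -3.51 to 0.29. Of the 45, 32 were lower by 1.5-fold or more and 0 were higher, and 40 lay below 0. Over all genes tested, 31.7% were lower and 17.5% higher by 1.5-fold, and the median was -0.19. Of all genes measured on both arrays, 59.5% lay below 0. Among 10575 other genes of like signal (between the 10th and 90th percentile of the replication genes' levels) 36.4% were lower and the median was -0.23. At 2-fold, 20 of the 45 were lower, against 18.3% of all genes.

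Other gene groups differed between the same arrays. The housekeeping list had a median of -0.85 in WT, with 9 of 15 genes lower by 1.5-fold and 0 higher. The summed scaled signal of the replication genes was 298.6 on WT LT-HSC, 577.8 on WT MPP, 366.4 on cKO LT-HSC and 532.7 on cKO MPP, and that of the housekeeping list was 753.7, 1305, 828.8 and 1143 in the same order. B cell markers went the other way: 9 of 10 were higher on WT LT-HSC than on WT MPP, and their summed scaled signal was 85.0 against 16.6, with 45.1 on cKO LT-HSC and 20.0 on cKO MPP. All 10 B cell markers were well above background on both LT-HSC arrays. Of 10 T and NK markers, 9 were higher on the LT-HSC array by 1.5-fold in each genotype. Of 9 erythroid markers 7 were higher on WT LT-HSC, with a summed scaled signal of 88.9 against 35.9 on WT MPP. Of 10 stromal markers 5 were higher on WT LT-HSC and 2 lower. The stromal list summed to 39.9 on WT LT-HSC and to at most 11.1 on the other 3 arrays. Such sums follow the brightest probes. Cxcl12, the brightest stromal marker on WT LT-HSC, had signals of 5118 there and 94.9 on WT MPP. The part of these lists in the replication results was not tested, and in bulk RNA fewer cycling cells and less RNA per cell cannot be told apart.

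**Figure D1:**
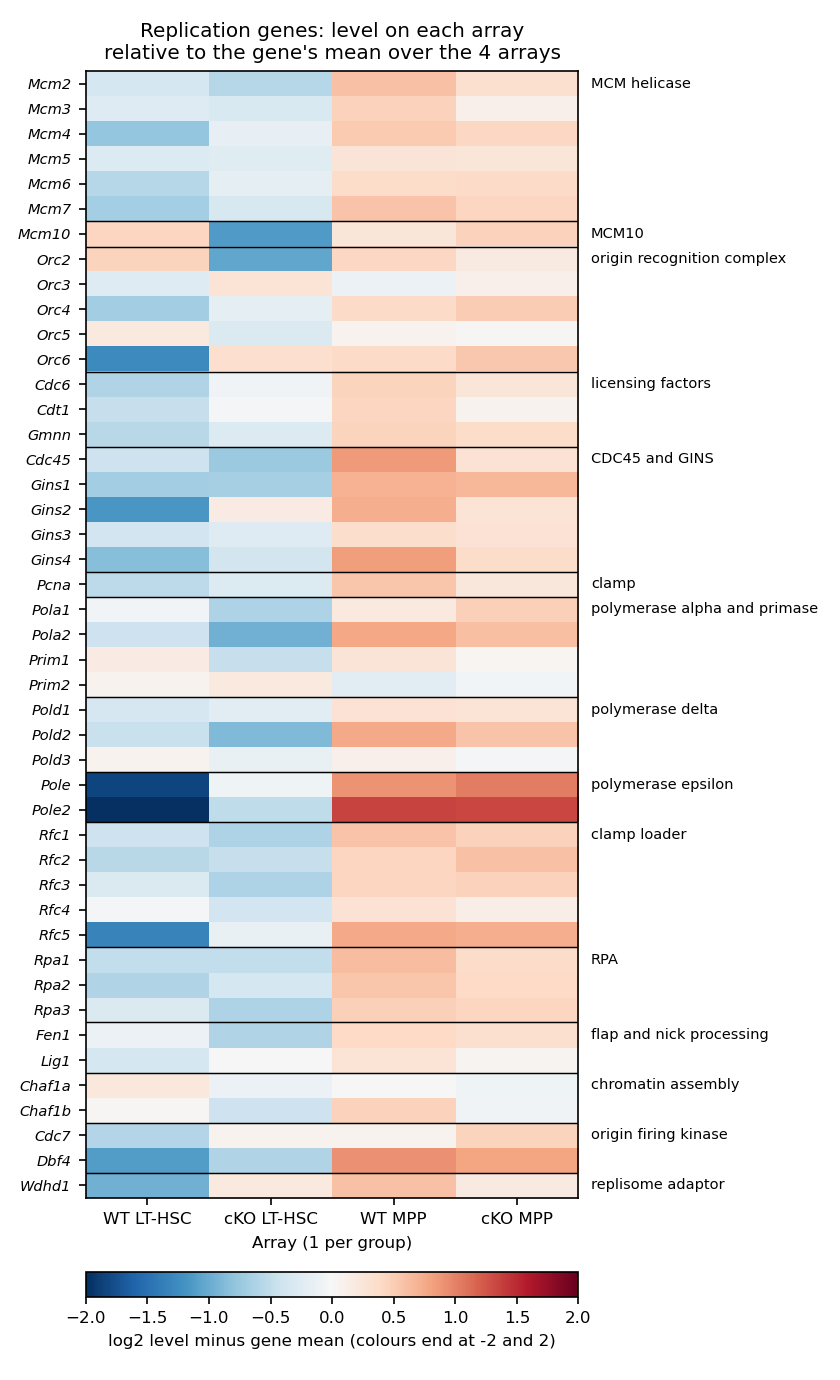
Log2 level of each of the 45 replication genes (rows, ordered by role) on the 4 arrays (columns, 1 array per group), relative to the gene's own mean over the 4 arrays. Blue is below and red above that mean; 31 genes were highest on the WT MPP array and 26 were lowest on the WT LT-HSC array.

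The levels were ordered alike in many genes. In 18 of the 45 the order from high to low was WT MPP, cKO MPP, cKO LT-HSC, WT LT-HSC, and in 9 more only the 2 LT-HSC arrays were exchanged. The highest array was WT MPP in 31 genes, cKO MPP in 9, WT LT-HSC in 3 and cKO LT-HSC in 2. The lowest was WT LT-HSC in 26, cKO LT-HSC in 18 and WT MPP in 1. For 28 of the 45 genes the 2 MPP arrays differed by less than that gene's scanner error, so the order of these arrays is unsettled there. Orders were not counted over all genes, so these counts do not show an order particular to the 45.

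The 2 measured subunits of polymerase epsilon, the main leading-strand polymerase, had the largest differences in WT. Pole2, the second subunit, had a signal of 48.0 on WT LT-HSC, 456 on WT MPP, 143 on cKO LT-HSC and 442 on cKO MPP. It was low on both LT-HSC arrays and lowest in WT, and the LT-HSC minus MPP difference was -3.51 (scanner error 0.22), or 11.4-fold lower, in WT and -1.84 (0.21) in cKO. Pole, the catalytic subunit, had signals of 28.3, 157, 89.5 and 167 in the same array order, which gave -2.74 (0.25) in WT and -1.10 (0.21) in cKO. The 2 other probes of Pole gave -1.27 and -1.29 in WT, and -0.08 and -0.26 in cKO. The place of Pole among the largest in WT and its size in cKO thus rest on the brightest probe. Pole3 and Pole4, further subunits from a list of accessory factors described below, gave -0.82 and -0.68 in WT, and -0.94 and -0.40 in cKO. The array reads Pole2 through a probe that spans an intron, with its outer ends at chr12:70307465-70308864 on the minus strand (mm9), printed here because the largest difference rests on this stretch alone.
Pole2 probe: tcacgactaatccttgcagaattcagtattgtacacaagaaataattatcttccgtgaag

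The helicase genes Mcm2 to Mcm7 form the ring that unwinds DNA, and all 6 were lower on the LT-HSC array in both genotypes. Mcm4 had signals of 4710.1 on WT LT-HSC, 9629 on WT MPP, 6753 on cKO LT-HSC and 8744 on cKO MPP. Mcm7 had signals of 7456, 14878, 9059 and 13135, and Mcm2 of 434.7, 696.4, 351.7 and 566.1. Both LT-HSC arrays lay below both MPP arrays for each of these 3 genes. In WT the 6 differences ran from -1.29 (Mcm4) to -0.53 (Mcm5), with a median of -0.94 and 5 of 6 past 1.5-fold. With quantile normalization Mcm3 at -0.31 and Mcm6 at -0.40 no longer passed in WT. In cKO they ran from -0.89 (Mcm2) to -0.41 (Mcm3), with a median of -0.57 and 2 of 6 past 1.5-fold.

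Mcm10, which helps to activate the helicase, did not share this pattern. Its signal was 451 on WT LT-HSC, 331 on WT MPP, 143 on cKO LT-HSC and 376 on cKO MPP. Only the cKO LT-HSC array was low, and the LT-HSC minus MPP difference was 0.19 (scanner error 0.20) in WT and -1.60 (0.21) in cKO. Mcm10 has 1 probe on the array.

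Genes of the origin recognition complex did not share a pattern. Orc6 had signals of 528 on WT LT-HSC, 1389 on WT MPP, 1515 on cKO LT-HSC and 1511 on cKO MPP. The WT LT-HSC array alone was low, and the difference was -1.66 (0.20) in WT and -0.20 (0.20) in cKO. Orc2 had signals of 243, 198, 82.6 and 166 in the same order. Here the cKO LT-HSC array alone was low, as for Mcm10, and the difference was 0.03 (0.21) in WT and -1.22 (0.21) in cKO. Orc4 gave -1.08 and -0.70, Orc3 -0.14 and 0.18, and Orc5 0.13 and -0.31. Orc5 had low signals, from 33.9 to 49.9, and errors of 0.26 to 0.28.

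The licensing factors were lower on WT LT-HSC in all 3 cases. Cdc6, which helps to load the helicase, had signals of 541 on WT LT-HSC, 934 on WT MPP, 744 on cKO LT-HSC and 795 on cKO MPP. Cdt1, its partner, had signals of 1054, 1617, 1331 and 1243. Gmnn encodes geminin, which holds Cdt1 back, and it had signals of 692.5, 1162, 798.4 and 1075. The differences in WT were -1.05 for Cdc6, -0.88 for Cdt1 and -1.01 for Gmnn. In cKO they were -0.30, -0.11 and -0.64, and only Gmnn passed 1.5-fold.

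Cdc45 and the 4 GINS genes, which complete the active helicase, were all lower on WT LT-HSC by 1.5-fold or more, with a median of -1.39. With quantile normalization Gins3 gave -0.21 in WT and did not pass. Gins2 had signals of 721 on WT LT-HSC, 2231 on WT MPP, 1722 on cKO LT-HSC and 1597 on cKO MPP. It was low only on WT LT-HSC, and the difference was -1.89 (0.20) in WT and -0.10 (0.20) in cKO. Gins1 had signals of 289, 630.0, 279 and 609, low on both LT-HSC arrays, with differences of -1.39 and -1.33. Cdc45 gave -1.27 and -1.03, Gins4 -1.69 and -0.74, and Gins3 -0.73 and -0.55. The Gins3 probe shares 27 bases with probes filed under other gene names, so its signal may include other transcripts.

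The kinase that fires origins was lower on WT LT-HSC in both of its genes. Dbf4, the regulatory subunit, had signals of 128 on WT LT-HSC, 439 on WT MPP, 173 on cKO LT-HSC and 395 on cKO MPP. Both LT-HSC arrays were low, and the differences were -2.03 (0.21) and -1.40 (0.21). Cdc7, the catalytic subunit, gave -0.65 and -0.38 from signals of 139, 182, 208 and 234, so that the WT LT-HSC array was the lowest and the cKO MPP array the highest. Wdhd1, an adaptor that tethers polymerase alpha to the helicase, had signals of 643, 1567, 1365 and 1167. It was low only on WT LT-HSC at this probe and gave -1.54 (0.20) in WT and 0.02 (0.20) in cKO.

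Genes that start strands were split. Pola2, the second subunit of polymerase alpha, had signals of 72.4 on WT LT-HSC, 139 on WT MPP, 46.9 on cKO LT-HSC and 120 on cKO MPP, low on both LT-HSC arrays, with differences of -1.20 (0.22) and -1.57 (0.23). Pola1, its catalytic subunit, had signals of 602.3, 602.5, 389 and 712, and gave -0.26 and -1.08. The primase genes stayed within 1.5-fold in both genotypes: Prim1 gave -0.10 and -0.51, and Prim2 gave 0.29 and 0.25. Of the 45 genes at their brightest probes, Prim2 alone had a difference above 0 in both genotypes. Its other probe had the opposite sign, at -0.41 in WT and -1.43 in cKO. That other probe is annotated to the RefSeq transcript of Prim2, and the brightest probe is not.

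The clamp and its loader were mostly lower in LT-HSC. Pcna, the clamp, had signals of 4448 on WT LT-HSC, 7839 on WT MPP, 4993 on cKO LT-HSC and 6110.2 on cKO MPP, and gave -1.08 and -0.50. Rfc5, a small loader subunit, had signals of 708, 2524, 1514 and 2414 and gave -2.09 (0.20) and -0.88 (0.20). The large subunit Rfc1 gave -0.996 and -1.09, Rfc2 gave -0.98 and -1.04, and Rfc3 gave -0.72 and -1.08. Rfc4 gave -0.33 and -0.52 and stayed within 1.5-fold in both genotypes. Of the 5 loader genes, 4 passed 1.5-fold in each genotype.

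The 3 RPA genes, whose products coat single-stranded DNA, were all lower by 1.5-fold in both genotypes with the scaling used here. Rpa1 gave -1.11 in WT and -0.85 in cKO, Rpa2 gave -1.16 and -0.75, and Rpa3 gave -0.78 and -1.04. With quantile normalization Rpa3 gave -0.39 in WT and did not pass 1.5-fold. Pold2, an accessory subunit of polymerase delta, had signals of 289, 551, 201 and 479 and gave -1.19 (0.20) and -1.46 (0.21). The catalytic subunit Pold1 gave -0.62 and -0.50, and Pold3 gave -0.03 and -0.11. Fen1, which trims flaps, gave -0.53 and -0.91, and the ligase Lig1 gave -0.63 and -0.06. Chaf1a and Chaf1b, which place histones behind the fork, stayed within 1.5-fold in both genotypes, at 0.22 and -0.43 in WT and -0.02 and -0.34 in cKO.

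On the cKO arrays the shift was in the same direction. The median LT-HSC minus MPP difference was -0.64, with a range from -1.84 (Pole2) to 0.25 (Prim2). Of the 45, 23 were lower by 1.5-fold and 0 were higher, and 42 lay below 0. Over all genes tested, 19.3% were lower and 15.5% higher, and the median was -0.09. Of all genes measured on both arrays, 57.0% lay below 0. Among other genes of like signal 23.2% were lower. At 2-fold, 14 of the 45 were lower, against 6.84% of all genes. The housekeeping list had a median of -0.57, with 7 of 15 lower, and 8 of 10 B cell markers were higher. Macrophage markers were lower in 8 of 9 cases, with a median of -2.12, and summed to 36.5 on cKO LT-HSC against 119.6 on cKO MPP. In WT 6 of 9 were lower, and the sums were 41.7 and 58.3. Their part was not tested.

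**Figure D2:**
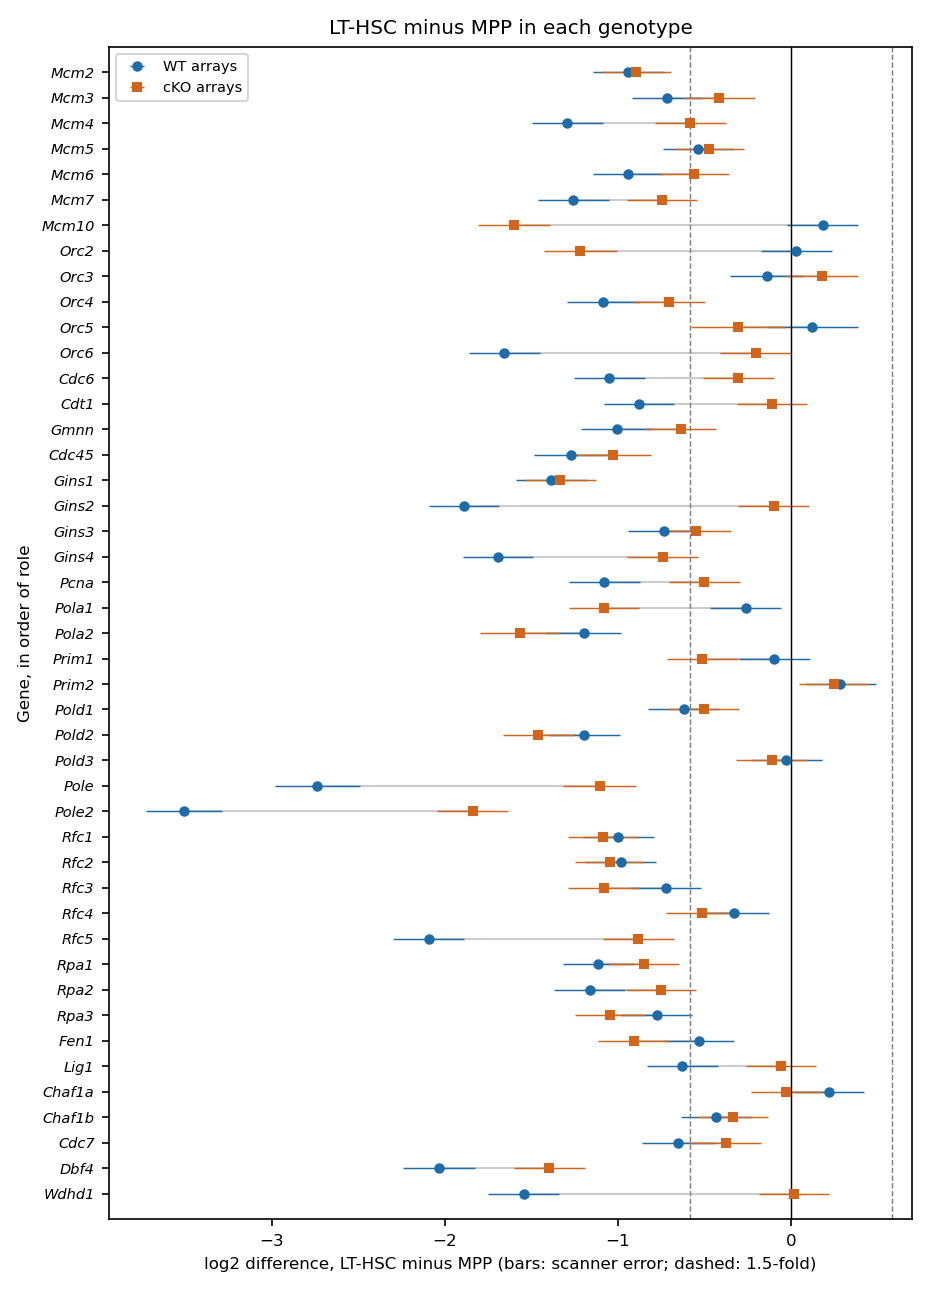
LT-HSC minus MPP difference (log2, horizontal axis) of each replication gene in WT (blue circles) and cKO (orange squares), 1 array per group; bars show the scanner software's error and dashed lines 1.5-fold. Points lie left of 0 for 40 genes in WT and 42 in cKO, and the gap between genotypes is widest for Gins2, Mcm10, Pole, Pole2, Wdhd1 and Orc6.

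The WT and cKO differences come from 4 separate arrays, so the genotypes can be set side by side. Lower by 1.5-fold in both were 19 genes, which is 59.4% of the 32 in WT and 82.6% of the 23 in cKO. For all genes measured on the 4 arrays, 2771 were lower in both, which is 39.3% of the WT list and 64.7% of the cKO list. Past 1.5-fold in cKO but not in WT were Mcm10, Orc2, Pola1 and Fen1. In neither genotype were Mcm5, Orc3, Orc5, Prim1, Prim2, Pold3, Rfc4, Chaf1a and Chaf1b. The difference was the more negative in WT for 29 of the 45, or 64.4%, against 57.7% of all genes. Whether the population difference itself differs between genotypes cannot be tested with 1 array per group.

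The spread among the 45 genes in WT was narrower than among all genes. The interquartile range was 0.73 for the replication genes in WT, against 1.10 for all genes and 1.24 for other genes of like signal. In cKO it was 0.71, against 0.76 for both. These are descriptions with no test.

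**Figure D3:**
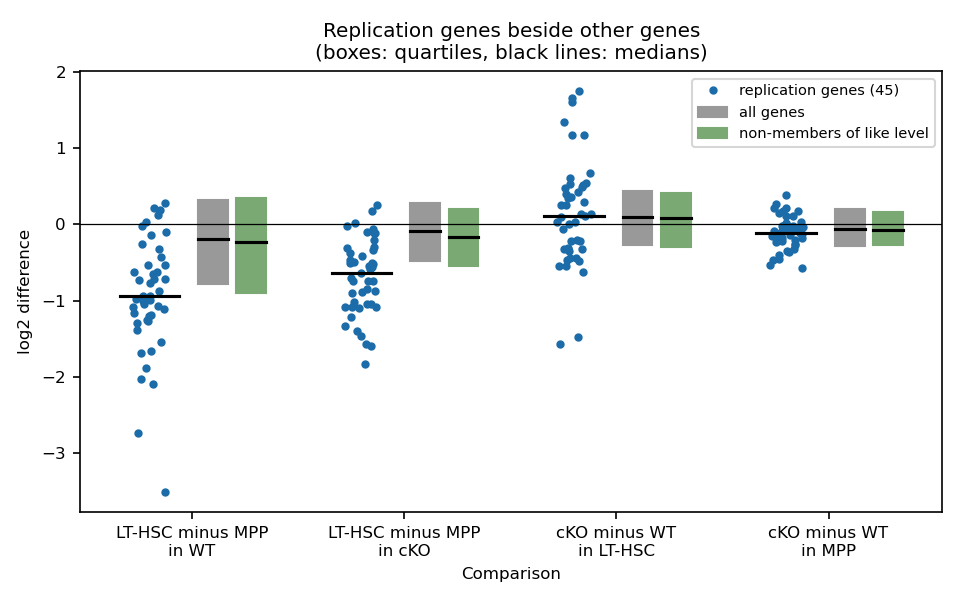
Log2 differences of the 45 replication genes (points) in the 4 comparisons, beside boxes that span the quartiles of all genes (grey) and of other genes of like signal (green); black lines are medians. The median of the points lies below that of all genes in both LT-HSC minus MPP comparisons (-0.94 against -0.19 in WT, -0.64 against -0.09 in cKO). Some single points lie above it. In the cKO minus WT comparisons the medians lie close together (0.11 against 0.10 in LT-HSC, -0.11 against -0.06 in MPP) and the points spread to both sides.

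Within LT-HSC, the knockout array showed no shared direction for the replication genes. The median cKO minus WT difference was 0.11, against 0.10 for all genes, with a range from -1.57 to 1.75. By 1.5-fold, 8 genes were higher and 3 lower, where 21.2% of all genes were higher and 15.4% lower. The share of the 45 that were higher, 17.8%, was near the background, and the share that were lower, 6.67%, was below it. The comparison shares the WT LT-HSC array with the WT population comparison, so a gene that read low there enters both, with opposite sign.

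The 8 genes that were higher on cKO LT-HSC than on WT LT-HSC were Pole, Pole2, Orc6, Gins2, Rfc5, Wdhd1, Cdc7 and Mcm4. The difference was 1.75 for Pole (scanner error 0.25; 28.3 against 89.5), 1.65 for Pole2 (0.22; 48.0 against 143) and 1.60 for Orc6 (0.20; 528 against 1515). It was 1.34 for Gins2, 1.18 for Rfc5 and 1.17 for Wdhd1, and just past 1.5-fold for Cdc7 at 0.67 and Mcm4 at 0.60. For Orc6, Gins2 and Wdhd1 the cKO LT-HSC array differed from the cKO MPP array by no more than the scanner error (-0.20, -0.10 and 0.02). Pole, Pole2 and Rfc5 were still lower on cKO LT-HSC than on cKO MPP, by the -1.10, -1.84 and -0.88 given above.

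The 3 genes that were lower on cKO LT-HSC were Mcm10 at -1.57 (scanner error 0.21; 451 against 143), Orc2 at -1.47 (0.21; 243 against 82.6) and Prim1 at -0.63 (0.20; 775 against 473). Orc2, a core subunit that holds the complex on DNA, was read through a probe with its ends at chr1:58521127-58522890 on the minus strand (mm9), across an intron. Gins2, one of the GINS subunits, was read at chr8:123112627-123112686 on the minus strand (mm9). Both sequences are printed because these genes went opposite ways on the same pair of arrays, each through its only probe. Neither probe shares a run of 16 bases with a probe of another gene.
Orc2 probe: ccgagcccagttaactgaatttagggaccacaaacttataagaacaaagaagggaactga
Gins2 probe: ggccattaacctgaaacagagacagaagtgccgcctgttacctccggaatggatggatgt

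Groups of genes did not move as units in this comparison. Within the origin recognition complex Orc6 was higher and Orc2 lower, and the other 3 stayed within 1.5-fold. Of the 6 ring genes of the helicase 1 passed, and of the 5 genes of Cdc45 and GINS 1 passed. Pole and Pole2 of polymerase epsilon were higher, while Pold1, Pold2 and Pold3 of polymerase delta and the 3 RPA genes all stayed within 1.5-fold. The further subunits from the list of accessory factors did not follow this split. Pold4 was lower at -0.84, past 1.5-fold, and Pole3 at -0.21 and Pole4 at 0.13 stayed within it. On the same pair of arrays 8 of 10 B cell markers were lower by 1.5-fold in cKO, with a median of -1.13, and Cd34 was higher by 1.70 on the log2 scale. Their part was not tested.

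Within MPP, none of the 45 genes passed 1.5-fold between cKO and WT in either direction at its brightest probe, where 8.01% of all genes were higher and 9.57% lower. The differences ran from -0.57 (Cdc45) to 0.39 (Cdc7), with a median of -0.11 against -0.06 for all genes. Cdc45 had signals of 85.4 on WT LT-HSC, 172 on WT MPP, 64.6 on cKO LT-HSC and 114 on cKO MPP, so that the cKO array was the lower in each population. Chaf1b had signals of 897, 1009.8, 623 and 681, and gave -0.54 in MPP and -0.44 in LT-HSC at this probe, while another probe of the gene gave 0.35 and -0.34. Gins4 had signals of 285, 768, 376 and 544, and gave -0.47 in MPP and 0.48 in LT-HSC. Gins2 gave -0.45 and Wdhd1 gave -0.40 in MPP, both within 1.5-fold. Below 0 were 34 of the 45, or 75.6%, against 56.5% of all genes measured. These 34 held the 5 genes of Cdc45 and GINS, the 3 licensing factors, the 3 RPA genes and the 3 polymerase delta genes of the 45. Several lay well within the scanner error, such as Gins1 at -0.02, Pold1 at -0.02 and Rpa3 at -0.05. These signs depend on the scaling. With quantile normalization Gins1 (0.05), Gins3 (0.10) and Gmnn (0.04) lay above 0, and the median of the 45 was -0.03. The other Rpa1 probe gave 0.05, and Pold4, a polymerase delta subunit in the list of accessory factors, gave 0.11.

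The MPP arrays differed less over the replication genes than over other genes. The interquartile range was 0.20, which is the size of the scanner error, against 0.43 for other genes of like signal and 0.48 for all genes. In LT-HSC it was 0.82, against 0.71 and 0.72. Of other genes of like signal 4.92% were lower and 4.15% higher by 1.5-fold in MPP. On the same pair of MPP arrays 8 of 9 macrophage markers were higher in cKO, with a median of 1.44, and the part of such cells in the replication values was not tested.

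**Figure D4:**
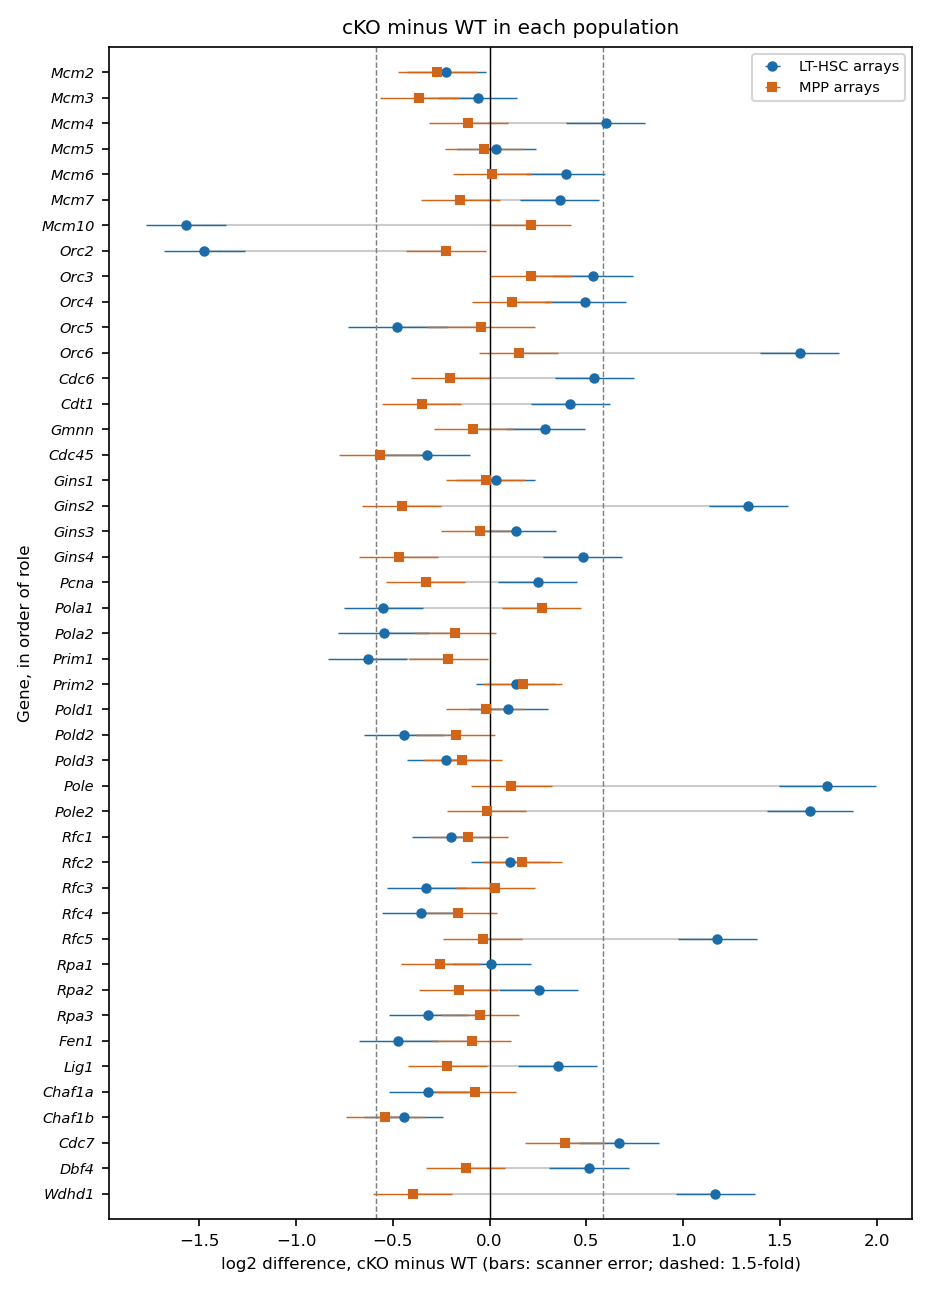
cKO minus WT difference (log2, horizontal axis) of each replication gene in LT-HSC (blue circles) and in MPP (orange squares), 1 array per group; bars show the scanner software's error and dashed lines 1.5-fold. In MPP the points stay between -0.57 and 0.39, and in LT-HSC they run from -1.57 to 1.75.

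Genes with several probes showed how far a value rests on the probe. In the WT population comparison the 8 genes called lower that had other measured probes had 9 such probes: 7 of these pointed the same way, and 6 passed 1.5-fold. In cKO 6 of 6 probes had the same sign, but 1 passed 1.5-fold, that of Rpa1 at -0.91, and those of Orc4, Gmnn, Pole and Rfc5 lay between -0.26 and -0.04. For cKO minus WT in LT-HSC 5 of 5 had the same sign and 1 passed, a Pole probe at 1.17. The others were 0.37 for Pole, 0.47 for Rfc5, 0.09 for Cdc7 and 0.13 for Wdhd1. Most calls with another probe in these last 2 comparisons thus rest on the brightest probe. Orc4 and Wdhd1 were the exceptions in WT. Orc4 gave -1.08 at its brightest probe and 2.79 at the other, whose signal was 390.2 on WT LT-HSC and between 45.9 and 51.0 on the other arrays. Wdhd1 gave -1.54 at its brightest probe and 0.91 at the other, which was dim, with signals from 20.2 to 46.9.

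The probes of these 2 genes lie apart on the genome. The brightest Orc4 probe is at chr2:48792316-48792375 and the other at chr2:48758811-48758870, both on the minus strand (mm9). The brightest Wdhd1 probe spans chr14:47864781-47865014, across an intron, and the other lies at chr14:47878084-47878143, both on the minus strand. The other Wdhd1 probe is annotated to an Ensembl transcript and not to the RefSeq one. The brightest probes are printed, since the values by role rest on them, with capitals for the 16 bases of the Orc4 probe that also occur in a probe of another gene.
Orc4 brightest probe: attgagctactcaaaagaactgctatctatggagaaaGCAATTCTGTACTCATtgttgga
Wdhd1 brightest probe: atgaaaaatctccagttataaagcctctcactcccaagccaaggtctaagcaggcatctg

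Probes of other genes also disagreed. Rfc4 gave -0.33 in WT at its brightest probe and -2.37 at the other, and -0.35 against 1.45 for cKO minus WT in LT-HSC. Orc3 gave -0.14 and -1.54 in WT, Rfc5 gave -2.09 and -0.14, and Prim2 gave 0.25 and -1.43 in cKO. Chaf1b gave -0.34 and -1.20 in cKO, and -0.54 and 0.35 for cKO minus WT in MPP. The statements that Rfc4, Orc3, Prim2 and Chaf1b stayed within 1.5-fold therefore hold for their brightest probes only. For cKO minus WT in LT-HSC, 5 genes within 1.5-fold at the brightest probe passed it at another: Gmnn (the dim probe on the other strand), Orc3, Orc4, Prim2 and Rfc4. In MPP 2 did, Pole at -0.82 and Wdhd1 at 0.64. Of the 60 probes, 50 share no run of 16 bases with a probe of another gene.

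**Figure D5:**
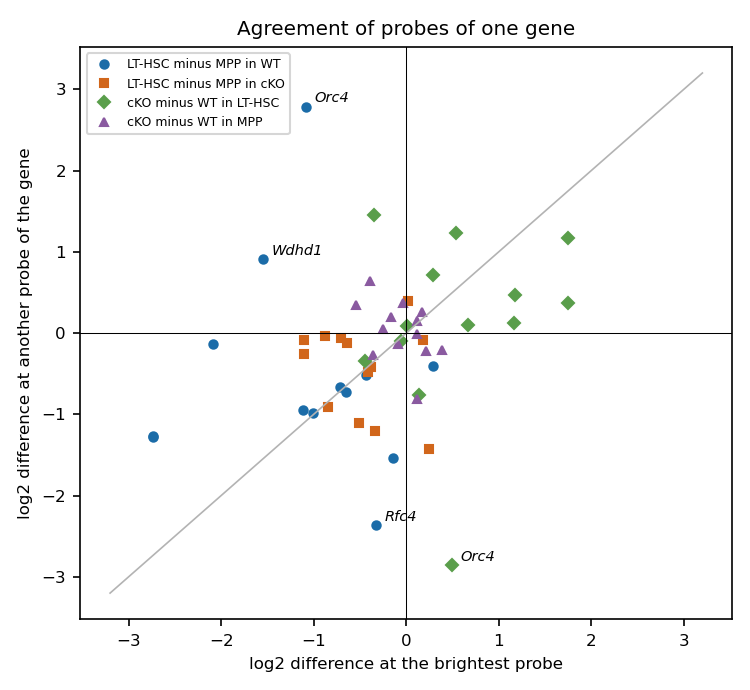
Log2 difference at another probe of a gene (vertical axis) against that at its brightest probe (horizontal axis), for replication genes with several measured probes, in the 4 comparisons (symbols); the grey line marks equal values. Orc4 and Wdhd1 lie in the upper left quadrant for LT-HSC minus MPP in WT, at 2.79 against -1.08 and 0.91 against -1.54.

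A model over all 4 arrays allowed a test with 1 residual degree of freedom. It fitted genotype and population as additive terms in limma, so that any gene whose response differed between the groups counted as error. For LT-HSC minus MPP, 0 of 25840 genes passed an adjusted p of 0.05 in limma (Benjamini-Hochberg), and the smallest adjusted p was 0.0728. At an unadjusted p under 0.05, 2317 genes were lower in LT-HSC, or 8.97%, and 1730 were higher, or 6.7%. Among the 45 replication genes 18 were lower at that level and 0 were higher. Dbf4 had the smallest adjusted p of the 45, 0.259, with a difference of -1.71 (SE 0.32), and was lower in both pairs of arrays.

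Of the 45, Pole2 had the largest fitted difference, -2.67 (SE 0.53), with an adjusted p of 0.267, and Gins1 had -1.36 (SE 0.27) with 0.268. Pola2 at -1.38 and Pold2 at -1.33 both had 0.277. For cKO minus WT, 0 genes passed, the smallest adjusted p in limma was 0.974, and 517 genes were higher and 407 lower at an unadjusted p under 0.05, or 2 and 1.58%. None of the 45 was among them. In simulated arrays with 200 or 2000 planted population differences of 1 to 4 log2 units, 0% of these passed the adjusted threshold. The simulated noise used residual spreads estimated with 1 degree of freedom, so this share may not hold for the real arrays. With 1 residual degree of freedom the count of 0 says little about the genes.

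Other genes of the pathway shared the population difference. A list of 37 accessory factors had 34 on the array under the names used: 28 were lower by 1.5-fold in WT LT-HSC and 0 higher, with a median of -0.82, and 13 were lower in cKO, with a median of -0.41. Asf1a, a histone chaperone, was below background on WT LT-HSC and was lower there by at least 2.76 on the log2 scale (a bound of -2.76). Top1, a topoisomerase, gave -2.36, Orc1, the largest subunit of the origin recognition complex, gave -2.26 and Dna2, a nuclease and helicase, gave -2.10. Between genotypes in LT-HSC, 9 accessory factors were higher and 3 lower, with a median of 0.25, and in MPP 1 was higher and 1 lower.

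Regulators of the G1/S transition and markers of dividing cells were set beside them. Of 24 G1/S regulators tested in WT, 14 were lower and 2 higher, against 31.7 and 17.5% of all genes. The median was -1.10 over the 23 measured on both arrays. The lowest were E2f3 at -2.50, the ubiquitin ligase subunit Skp2 at -2.25 and cyclin A2 (Ccna2) at -2.25. In cKO 11 were lower and 3 higher, against 19.3 and 15.5% of all genes, with a median of -0.40 over 23 measured. All 12 proliferation markers were lower in WT, with a median of -2.002, and 9 of 12 in cKO, with a median of -1.13. Between genotypes in LT-HSC 7 of the 12 were higher and 0 lower, against 21.2 and 15.4% of all genes, with a median of 0.75. In MPP none of the 12 passed, with a median of -0.11. In LT-HSC the proliferation markers' median thus lay above that of the replication genes, 0.75 against 0.11, a difference that was not tested.

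Promoters of the replication genes were searched for short motifs, because so many of the genes were lower together. RefSeq promoter windows, from 250 bases before to 50 bases after a start site (GRCm38.p6), were matched by symbol for 37 of the 45 genes. The E2F-type motif was searched as TTTCCCGC, TTTCGCGC, TTTGCCGC and TTTGGCGC on both strands. It occurred for 14 of the 37 genes, or 37.8%, against 2.61% of 27025 genes with a window. The CCAAT box, searched as CCAAT on both strands, occurred for 21 genes, or 56.8%, against 41.1%, and the GC box, searched as GGGCGG on both strands, for 29, or 78.4%, against 38.2%.

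Holding the E2F-type motif did not go with a larger difference. The 14 genes with a match were Mcm3, Mcm5, Mcm6, Mcm7, Orc3, Cdc6, Cdt1, Gins3, Pola1, Pold1, Pold3, Pole2, Rfc3 and Lig1. Their median LT-HSC minus MPP difference was -0.72 in WT and -0.49 in cKO, against -0.996 and -0.85 for the 23 genes with a window and no match. In WT 10 of the 14 were lower by 1.5-fold, and 15 of the 23. A match is a run of letters, not a measured site.

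The windows of the 5 genes with a match and the largest mean population difference are printed 5′ to 3′ on the gene's strand, with the motif in capitals, to show where it sits relative to the start site. They lie at chr12:69228141-69228440 for Pole2, chr5:138171834-138172133 for Mcm7, chr5:151651159-151651458 for Rfc3 and chr1:128359656-128359955 for Mcm6, all on the minus strand, and at chr11:98907901-98908200 on the plus strand for Cdc6. Mcm7 has 2 windows, of which 1 is shown. Relative to the start site the first base of the match is at 11 in Pole2, at -165 and 17 in Mcm7, at -10 and 1 in Rfc3, at -110, -106 and -47 in Mcm6 and at -138 in Cdc6. The matches at -110 and -106 in Mcm6 overlap, so their capitals run together.
Pole2: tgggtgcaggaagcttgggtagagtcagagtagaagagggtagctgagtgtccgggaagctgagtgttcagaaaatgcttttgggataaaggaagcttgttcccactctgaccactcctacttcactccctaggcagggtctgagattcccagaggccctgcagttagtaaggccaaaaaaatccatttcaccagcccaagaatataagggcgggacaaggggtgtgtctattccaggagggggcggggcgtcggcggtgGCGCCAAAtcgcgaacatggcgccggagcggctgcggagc
Mcm7: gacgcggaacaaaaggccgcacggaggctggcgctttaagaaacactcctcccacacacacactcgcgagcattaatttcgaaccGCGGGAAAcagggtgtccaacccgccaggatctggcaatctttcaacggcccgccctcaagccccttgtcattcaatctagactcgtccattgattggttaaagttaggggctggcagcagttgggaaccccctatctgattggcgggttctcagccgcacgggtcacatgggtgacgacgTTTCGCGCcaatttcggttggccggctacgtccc
Rfc3: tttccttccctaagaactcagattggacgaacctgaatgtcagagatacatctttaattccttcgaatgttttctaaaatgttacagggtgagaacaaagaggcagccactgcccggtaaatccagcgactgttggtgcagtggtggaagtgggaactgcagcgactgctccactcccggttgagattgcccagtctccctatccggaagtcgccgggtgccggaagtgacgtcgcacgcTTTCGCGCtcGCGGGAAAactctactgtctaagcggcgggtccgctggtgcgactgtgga
Mcm6: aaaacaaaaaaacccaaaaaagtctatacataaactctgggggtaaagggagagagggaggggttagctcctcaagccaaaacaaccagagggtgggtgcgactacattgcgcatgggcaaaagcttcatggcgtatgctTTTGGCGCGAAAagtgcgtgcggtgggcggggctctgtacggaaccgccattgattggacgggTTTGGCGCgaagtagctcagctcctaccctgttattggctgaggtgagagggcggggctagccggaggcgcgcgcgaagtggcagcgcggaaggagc
Cdc6: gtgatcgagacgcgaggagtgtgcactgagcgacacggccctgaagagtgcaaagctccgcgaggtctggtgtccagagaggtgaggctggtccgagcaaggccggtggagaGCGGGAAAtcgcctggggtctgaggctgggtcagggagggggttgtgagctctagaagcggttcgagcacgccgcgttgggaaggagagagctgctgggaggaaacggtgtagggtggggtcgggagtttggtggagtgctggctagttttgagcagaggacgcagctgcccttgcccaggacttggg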

How the data were processed

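RNA of 4 samples was hybridised to 1-colour (Cy3) Agilent mouse arrays, 1 per group. The authors' scanner files hold intensities written by Agilent Feature Extraction (9.5.3 per the submitters' processing notes, 10.7.3.1 per the file headers), already background-subtracted; probe positions in the files are on mm9. Flag scores per spot (well above background, outlier, saturated) are those of the scanner program, per the file headers. The authors' deposited series table holds a linear ratio for each probe, relative to that probe over the 4 arrays, by a centring rule not given in the sources used here; its log2 differences between arrays were within 0.01 of the scanner files' for at least 99.9982% of probes, and its column medians were 91.9, 107.3, 97.5 and 102.4 (LT-HSC, then MPP, of WT and then of cKO).

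From the intensities, outlier spots and controls were dropped, spots of a probe averaged, and log2 values scaled to each array's 75th percentile. A gene well above background on 1 of 2 arrays got a bound, from the lowest signal well above background (12.5 to 15.4 over the arrays). An additive model was fitted in limma 3.58.1 (R 4.3.3) on all genes above background on at least 2 arrays, and checked on simulated data. Members, lists, roles and motifs were chosen with earlier results of these data known. Named genes were all members by role, the 6 largest differences of each comparison on all arrays, and at most 4 of each other list. Pole3, Pole4 and Pold4 were named in addition, as further subunits of polymerases described here. Precision is limited by the number of arrays.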

Additional observations from a re-analysis of the deposited data

Results flagged for a closer look

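The cKO minus WT difference had opposite signs in the 2 populations for 22 of the 45 replication genes, and for 8 of these it was past the scanner error in both. In 3 of the 8 it also passed 1.5-fold in LT-HSC. The contrast is the cKO minus WT difference among LT-HSC arrays, less the same among MPP arrays. It was -1.78 for Mcm10, 1.79 for Gins2 and 1.56 for Wdhd1. With 1 array per group each difference was not tested. The share of all genes with opposite signs was not computed, so the counts of 22 and 8 do not set these genes apart. Wdhd1's other, dimmer probe gave 0.13 in LT-HSC and 0.64 in MPP, so its opposite directions were seen at the brightest probe only. Mcm10 and Gins2 have 1 probe each.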

How the results depend on the processing

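At 2-fold in place of 1.5-fold, 20 genes were lower in WT LT-HSC and 14 in cKO LT-HSC. With quantile normalization the WT population median was -0.64, 1 gene was higher in WT LT-HSC, and 5 were lower for cKO minus WT in LT-HSC. With normexp and quantile normalization the WT population median was -0.60. When the probes of a gene were averaged, 1 gene was higher in WT LT-HSC, and Orc4 turned to 0.85 in WT. With the dimmest measured probe 2 were higher in WT LT-HSC, Orc4 turned to 2.79 and Wdhd1 to 0.91, 5 genes were lower for cKO minus WT in LT-HSC and 1 was higher for cKO minus WT in MPP. The limma fit of LT-HSC minus MPP passed 57 genes with normexp and quantile normalization, 47 with only genes above background on all arrays and 197 with a mean-variance trend, and none of the 45 replication genes in any of these. The causes of these shifts were not tested, beyond the use of other probes.

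At 1.5-fold, over alternatives of scaling, filter and probe, 23 to 32 genes were lower in LT-HSC in WT and 19 to 23 in cKO. Of 527 recomputed differences past 1.5-fold, 524 kept their sign, and 479 of these stayed past it. Many could not change, since all 45 genes were above background on all arrays and the filters removed none. The authors' table holds the same intensities rescaled, and the probe settings left the 32 genes with 1 probe as they were. Of 66 differences past 1.5-fold, 56 stayed past it with quantile normalization and 51 with normexp added. With the percentile over probes above background on all arrays 60 did. In WT, Mcm3, Mcm6, Gins3, Pcna (-0.54) and Rpa3 were among those within 1.5-fold with quantile normalization. Counts of genes past 1.5-fold by role thus depend on the scaling. Scaling moved the median of all genes from -0.19 to between -0.06 and -0.02 in WT under 3 other scalings; the replication genes' median less that of all genes was -0.75 as reported and -0.57 to -0.75 under these. In cKO it moved from -0.09 to 0.02 at most. With quantile normalization 24.9% of all genes were lower and 21.6% higher in WT, against 31.7 and 17.5%; with normexp added it was 15.5 and 14.2%. With the percentile over probes above background on all arrays 14.7% were lower and 19.0% higher in cKO, against 19.3 and 15.5%. Leaving out a replicate was not possible with 1 array per group. No paired analysis was possible because each group has 1 array.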
